A study of Rattus norvegicus with 26 samples.

Results

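Long-term voluntary wheel running was examined in the soleus of rats bred for low running capacity. Of the 26 libraries in the series, 13 belong to this comparison: 5 from running and 8 from sedentary rats of the low-capacity runner line (LCR), taken by the group written in each sample's description. All were aged females of generation 44 of the selective breeding, kept on standard chow, and no gene was altered in any group. Sedentary LCR rats had no wheel, whereas running LCR rats lived in pairs, each cage holding a wheel, for longer than 5 months according to the labels' protocols. The other 13 libraries hold the same design in the high-capacity runner line (HCR, 8 sedentary and 5 running). They share the main fit, and so its estimate of each gene's spread, with the LCR libraries. They also serve to check the line of each running library and to test whether the lines' responses differ. RNA was primed at the poly(A) tail, so that each read marks the 3' end of a transcript. Each library was taken as 1 animal. The running rats were a cohort of their own, so that cohort, cage and the presence of a wheel cannot be told apart from running, and how far each rat ran is not in the labels.

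The soleus is a postural calf muscle made mostly of slow, oxidative fibres that are recruited at low effort. Endurance training of muscle is known for raising mitochondrial content through the coactivator PGC-1α (Ppargc1a), for a greater use of fatty acids and glucose transport, for capillary growth, and for a shift of myosin type away from the fastest forms. Contraction acts on transcription through calcium and calcineurin, cyclic AMP, and energy sensing, while circulating glucocorticoids act through their own nuclear receptor. LCR rats were bred for poor endurance on a treadmill and are known for poor metabolic health, so that the question addressed is what months of running do to muscle with a low inherited capacity.

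Total counts ran from 1.28 to 2.03 megacounts (M) in the running and from 1.49 to 2.46 M in the sedentary libraries, and the group means did not separate (difference -0.0976 M, exact 2-sided permutation p = 0.601, smallest possible 0.000777). Mitochondrially encoded genes took 8.97% ± 0.850 of counts in runners and 8.74% ± 1.07 in sedentary rats (SD, n = 5 and n = 8, exact permutation p = 0.694). Slow-muscle markers were high in all 13 libraries, with Myh7, the slow myosin heavy chain, at 8730 to 12600 CPM (counts scaled to a common library size, with TMM) and the slow troponin Tnnt1 at 8130 to 11700, against 19.6 to 163 CPM for Myh4, the fastest myosin. LCR sedentary 5 stood apart: it was the deepest library, and the lowest of the 8 sedentary libraries in 13 of 36 gene lists. In some other lists it was the highest of the 8, among them collagen and matrix genes and acetylcholine receptor and denervation genes. Its median log2 CPM over the sedentary mean was 0.72 and 0.61 there. The title of LCR running 5 names the other line. Of 43 genes that separate the sedentary lines, 36 lay nearer to the sedentary LCR mean in that library, against 32 to 36 in the other LCR runners, and it was kept by its description and genotype. HCR running 5, whose title also names the other line, had 16 such genes, against 11 to 16 in the other HCR runners. It too was kept by its description and genotype. Values without LCR sedentary 5, LCR running 5 or other single libraries are given beside the results that they moved most.

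Across 10064 genes tested, 0 (0%) passed an adjusted p of 0.05 by edgeR's quasi-likelihood test, with a smallest adjusted p of 0.067. At an unadjusted p under 0.05 there were 612 genes (6.08%), of which 291 (2.89%) stood higher and 321 (3.19%) lower in runners, so that counts of list members below are read against these shares. DESeq2 called 2 genes (0.0199%), voom with quality weights called 1 (0.00994%), and a fit of the 13 LCR libraries alone called 0 of 9444, with 598 (6.33%) at an unadjusted p under 0.05. Values for single genes are therefore measurements that did not pass the threshold, given with their errors. The precision was enough to bound most genes: the 95% interval of the fold change lay inside 2-fold for 9235 genes (91.8%) and inside 1.5-fold for 6381 (63.4%). The median log2 fold change was 0.001, and 5062 genes (50.3%) lay above 0. In 17 genes (0.169%) all 5 runners stood above all 8 sedentary rats, and in 10 (0.0994%) all 5 stood below.

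The smallest p belonged to Tsc22d3, which encodes the glucocorticoid-induced leucine zipper, an anti-inflammatory target of the glucocorticoid receptor. The 5 runners measured 98.2, 80.8, 81.7, 126 and 73.9 CPM, and the sedentary rats ran from 51.7 through a median of 58.6 to 73.8 CPM. All 5 runners lay above all 8 sedentary rats, although LCR running 5, the lowest of them, barely cleared the highest sedentary rat. The means were 92.1 ± 20.8 and 60.4 ± 7.60 CPM, a 1.53-fold difference (log2 fold change 0.61, SE 0.12, edgeR adjusted p = 0.067). DESeq2 gave an adjusted p of 0.00784 and voom 0.0455, whereas the edgeR fit of the LCR libraries alone gave 0.189. Of 12 alternative settings, these included, 4 called Tsc22d3, and the highest adjusted p over the 12 was 0.435. The highest value came from LCR running 4, and without that library the log2 fold change was 0.47 (adjusted p = 0.644), whereas without LCR running 5 it was 0.67 (adjusted p = 0.0263).

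Some other glucocorticoid-induced genes stood on the same side, while others lay below 0. Glul, the glutamine synthetase of muscle, measured 188, 165, 158, 227 and 199 CPM in runners against 111 to 176 CPM (median 141) in sedentary rats, with 3 runners above the sedentary range (log2 fold change 0.39, SE 0.11, adjusted p = 0.541). Klf9, a repressor induced by glucocorticoids, measured 670, 687, 661, 833 and 747 CPM against 431 to 699 (median 571), with 2 runners above the sedentary range (0.34, SE 0.11, adjusted p = 0.706). Nfkbia, the inhibitor that holds NF-κB in the cytoplasm, stood at 223 ± 29.1 against 184 ± 15.2 CPM (0.28, adjusted p = 0.715). Sesn1, a stress-responsive inhibitor of mTORC1, and Klf15, a regulator of amino acid breakdown, stood at 0.30 and 0.39. Of 29 listed targets, 26 passed the filter on low counts. Of these, 15 lay above 0 and 11 below, against 50.3% and 49.7% of all genes, with values from -1.69 to 0.76. The median was 0.14, against 0.001 over all genes. An unadjusted p under 0.05 was reached by 6 targets, all of them higher, against 2.89% higher over all genes. Those 6 are Tsc22d3 and the genes just named. Fkbp5, a chaperone of the receptor that is another well-known target, stood at 0.31 (SE 0.27), Zbtb16 at 0.07 and Per1 at -0.03, and the receptor gene Nr3c1 was at 112 against 115 CPM (-0.03, SE 0.08). The list's value per library was highest in LCR running 4. Without LCR running 4, 3 members were higher and 2 lower at an unadjusted p under 0.05 and the median was 0.09, while without LCR sedentary 5 it was 0.13 with 6 higher, and without LCR running 5 0.21 with 7 higher, and without LCR running 1 the median was 0.08.

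Promoters are shown for Tsc22d3, which had the smallest p, and for Ppargc1a, the coactivator most tied to endurance training, so that the letters at their starts can be seen beside the counts. Each window runs from 250 bases before to 50 after an annotated start in RefSeq's GRCr8, on the strand of transcription, and the reads, which mark 3' ends, do not show which start was used. The Ppargc1a window, on the forward strand at chr14:63634058-63634357, holds in capitals the cyclic AMP response element TGACGTCA at -181 to -174 from the start, a sequence found in 612 of 33469 such windows (1.83%, both strands searched). The Tsc22d3 window, on the reverse strand at chrX:109009985-109010284 and 1 of 3 for that gene, holds in capitals the half-site TGACG at -75 to -71 and at -65 to -61, and the other 2 windows of Tsc22d3 do not hold it. That half-site, which also lies within the full element, is in 21.2% of windows on either strand, and in 1 of 1 window of Klf9, 1 of 2 of Glul, 2 of 5 of Pde4d and 0 of 1 of F2.
Ppargc1a: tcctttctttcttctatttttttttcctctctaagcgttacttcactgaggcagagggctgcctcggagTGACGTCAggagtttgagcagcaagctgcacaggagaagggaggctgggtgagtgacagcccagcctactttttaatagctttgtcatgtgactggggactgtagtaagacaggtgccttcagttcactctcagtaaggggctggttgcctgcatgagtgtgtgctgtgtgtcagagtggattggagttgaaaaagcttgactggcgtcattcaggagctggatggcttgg
Tsc22d3: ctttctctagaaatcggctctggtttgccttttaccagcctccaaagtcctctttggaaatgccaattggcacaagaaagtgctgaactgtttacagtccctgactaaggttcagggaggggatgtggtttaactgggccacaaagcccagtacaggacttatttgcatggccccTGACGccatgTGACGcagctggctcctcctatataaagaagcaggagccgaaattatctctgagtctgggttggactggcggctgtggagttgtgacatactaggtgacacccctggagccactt
The half-site AGAACA of the glucocorticoid receptor was in 20.7% of all windows, in 0 of 3 windows of Tsc22d3, in 0 of 1 of Klf9, in 0 of 2 of Glul, in 0 of 1 of Ppargc1a, in 2 of 5 of Pde4d and in 1 of 1 of F2. Such matches describe letters only.

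Ppargc1a, which encodes PGC-1α, measured 38.5, 56.9, 38.8, 78.3 and 67.7 CPM in the runners and from 27.4 through a median of 34.8 to 43.1 CPM in sedentary rats. LCR running 2, 4 and 5 lay above the sedentary range, and LCR running 1 and 3 lay within it. The means were 56.1 ± 17.6 and 34.4 ± 4.70 CPM, 1.62-fold apart (log2 fold change 0.69, SE 0.17, edgeR adjusted p = 0.49). The other regulators of mitochondrial biogenesis did not all lie on the same side of 0. Ppargc1b, the related coactivator PGC-1β, was at 111 ± 11.9 against 130 ± 20.7 CPM (-0.23, SE 0.11), Esrrb, a nuclear receptor that pairs with these coactivators, at 4.71 against 7.17 CPM (-0.66, SE 0.28), and Sirt1, a deacetylase that acts on PGC-1α, at 18.3 against 24.0 CPM (-0.37, SE 0.14). Esrra, the estrogen-related receptor α, stood at 0.24 (SE 0.13), and Tfam, which packages mitochondrial DNA, at 97.0 against 95.6 CPM (95% interval of the log2 fold change from -0.16 to 0.20). In all, 10 of 18 regulators lay above 0, 1 was higher and 3 were lower at an unadjusted p under 0.05, and the median was 0.01. With the plot of the leading genes by library, the spread among the 5 runners can be read beside that of the sedentary rats.

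**Figure D1:**
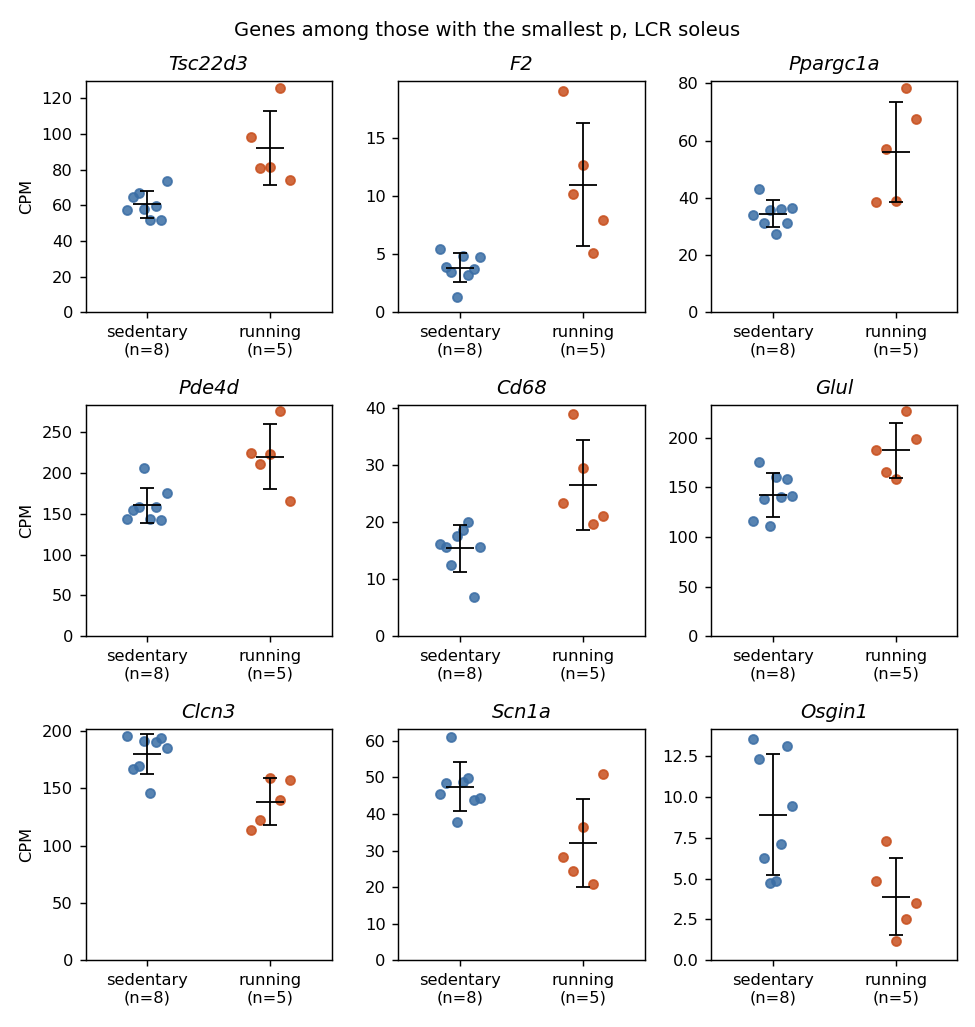
CPM of 9 genes among those with the smallest p, 6 higher and 3 lower in running LCR, in each sedentary (blue, n = 8) and running (orange, n = 5) LCR library on axes from 0; the black cross-bar and whiskers are the group mean ± SD. In Tsc22d3 the groups do not overlap (73.9 CPM at the lowest in runners against 73.8 at the highest in sedentary rats), while in the other 8 panels at least 1 runner lies within the sedentary range.

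Nuclear genes of the respiratory chain and ATP synthase lay slightly higher in runners as a list: 67 of 80 were above 0, against 50.3% of all genes, with a median of 0.09. At an unadjusted p under 0.05, 9 were higher and 0 lower (11.2% of members). Ndufb8, a subunit of complex I, measured 355, 335, 321, 387 and 410 CPM against 258 to 355 CPM (median 306), with 3 runners at or above the highest sedentary value (log2 fold change 0.25, SE 0.09, edgeR adjusted p = 0.706). Atp5pf, a coupling factor of ATP synthase, stood at 285 ± 26 against 238 ± 34.4 CPM (0.26, SE 0.10). This shift rested in part on single libraries. Without LCR sedentary 5, which was the lowest of the 13 at -0.39 on the list's log2 scale, 47 of 80 members lay above 0, 4 were higher at an unadjusted p under 0.05 and the median was 0.03. Without LCR running 5, 55 lay above 0, 2 were higher and the median was 0.04. Leaving out LCR running 1 gave a median of 0.05, and leaving out LCR running 3 gave 0.14. Summed over the list, CPM ran from 26700 to 34000 in runners and from 21800 to 33700 in sedentary rats, so that the groups overlapped.

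In the TCA cycle and pyruvate dehydrogenase list, 22 of 28 genes lay above 0 (median 0.06), which became 14 of 28 (0.01) without LCR sedentary 5 and 15 of 28 (0.02) without LCR running 5, while the median was 0.15 without LCR running 3. Pdhb and Pdha1, the subunits of the pyruvate dehydrogenase that admits pyruvate to the cycle, were the only 2 members with an unadjusted p under 0.05. Pdhb stood at 294 ± 24.3 against 247 ± 27.0 CPM (0.25, SE 0.09) and Pdha1 at 165 ± 18.6 against 144 ± 13.5 CPM (0.20, SE 0.09). Cs, the citrate synthase used as an index of mitochondrial content, measured 200, 190, 161, 195 and 227 CPM against 146 to 201 CPM (median 187). Its ranges overlapped and its 95% interval ran from -0.07 to 0.26 on the log2 scale (adjusted p = 0.92). Of 13 mitochondrially encoded mRNAs, 2 lay above 0 (median -0.07). Without LCR sedentary 5, 0 of 13 did (-0.14, 2 lower at an unadjusted p under 0.05), without LCR running 5 also 0 (-0.16, 1 lower), and without LCR sedentary 1 the median was -0.03.

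Genes of fatty acid uptake and oxidation leaned the other way: 10 of 36 lay above 0 and 26 below, against 50.3% and 49.7% of all genes, and the median was -0.11. Hadha, a subunit of the mitochondrial trifunctional protein, measured 216, 214, 195, 205 and 237 CPM in runners, against 177 through 278 to 305 CPM in sedentary rats (log2 fold change -0.31, SE 0.14, edgeR adjusted p = 0.794). The lowest value of all, 177 CPM, was that of LCR sedentary 5, and the other 7 sedentary rats lay between 243 and 305 CPM, above all 5 runners. With the 2 conflicting libraries taken by title, the list's median was -0.01 and Hadha stood at -0.03. That fit places HCR running 5 among the LCR runners, although 16 of its 43 line genes lay nearer to the sedentary LCR mean. With both conflicting libraries left out, the median was -0.12. The lean depended on single libraries, as without LCR running 3 the median was -0.03. Without LCR sedentary 5 Hadha stood at -0.38, the list had 6 of 36 members above 0, 6 lower at an unadjusted p under 0.05 and a median of -0.20. Slc27a4, a fatty acid transport protein, stood at -0.33 and Cpt1b, the carnitine transferase that gates mitochondrial entry, at 450 ± 65.0 against 433 ± 67.6 CPM (0.06, SE 0.11). Pdk4, the kinase that turns off pyruvate dehydrogenase when fat is burned, varied widely. Its runners measured 12.5, 23.8, 34.2, 116 and 28.1 CPM and the sedentary rats 10.5 to 100 CPM (median 47.8; -0.28, SE 0.49). LCR running 4 alone held the 116 CPM, and without it Pdk4 stood at -1.09 (SE 0.49).

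F2 encodes prothrombin, the clotting enzyme precursor that is made chiefly in liver and at low levels in muscle. Runners measured 19.0, 10.2, 12.7, 5.05 and 7.91 CPM, and sedentary rats 1.34 to 5.41 CPM (median 3.83). Of the 5 runners, 4 lay above the sedentary range and LCR running 4 lay within it. The means of 11.0 ± 5.30 and 3.84 ± 1.25 CPM differed 2.81-fold (log2 fold change 1.49, SE 0.30, edgeR adjusted p = 0.104). DESeq2 called it (1.51, adjusted p = 0.0322), as did the edgeR fit without LCR running 4 (1.67, adjusted p = 0.0307). Voom did not (1.42, adjusted p = 0.16), and F2 was not tested in the fit of the LCR libraries alone. Over the edgeR refits without 1 library, its log2 fold change ran from 1.2 to 1.67, with adjusted p up to 0.771. The counts behind these values are small, from 8 to 35 reads in runners and from 2 to 13 in sedentary rats. Alb, the liver's most abundant mRNA, ran from 0 to 32.6 CPM in runners and from 0 to 22.9 CPM in sedentary rats, and its part in the F2 values was not tested.

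Pde4d, a phosphodiesterase that breaks down cyclic AMP, measured 224, 211, 223, 276 and 166 CPM in runners and 142 to 206 CPM in sedentary rats (median 157). All but LCR running 5 lay above the sedentary range (means 220 ± 39.2 and 160 ± 21.5 CPM, log2 fold change 0.46, SE 0.12, edgeR adjusted p = 0.533). Cd68, a lysosomal glycoprotein of macrophages, measured 23.3, 38.9, 29.5, 19.6 and 21.1 CPM against 6.86 to 20 CPM (median 16), with only LCR running 4 inside the sedentary range (0.79, SE 0.21, adjusted p = 0.541). Erf, a transcriptional repressor that is switched off by ERK signalling, measured 17.9, 19.0, 18.5, 24.0 and 16.7 CPM against 10.3 to 15.7 CPM, with no overlap (0.60, SE 0.16, adjusted p = 0.541). The remaining genes of the 12 higher with the smallest p were close to these in size. They are G3bp2, an RNA-binding protein of stress granules (0.36), Mkks, a chaperonin-like protein of the cilium base (0.34), Ncoa4, the receptor that delivers ferritin for degradation (0.42), Plaat1, a phospholipid acyltransferase (0.42), and Fam210b, a mitochondrial membrane protein (0.69). Plaat1 ran from 62.9 to 72.1 CPM in runners and from 38.6 to 62.0 CPM in sedentary rats, without overlap. Adjusted p-values of these 5 ran from 0.541 to 0.614.

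Among the genes lower in runners, Clcn3, an endosomal chloride-proton exchanger, measured 114, 122, 159, 140 and 157 CPM against 146 to 196 CPM (median 187; log2 fold change -0.38, SE 0.10, edgeR adjusted p = 0.541). Its lowest sedentary value, 146 CPM, was that of LCR sedentary 5. Scn1a, a voltage-gated sodium channel best known from neurons, measured 28.2, 24.3, 36.5, 20.8 and 51.0 CPM against 37.7 to 61.1 CPM (median 47.0; -0.59, SE 0.18). LCR running 5, at 51.0 CPM, was the only runner within the sedentary range, and without it Scn1a stood at -0.79. Osgin1, an oxidative stress-induced growth inhibitor and target of NRF2, measured 4.88, 7.30, 1.16, 2.53 and 3.52 CPM against 4.71 to 13.5 CPM (median 8.26; -1.13, SE 0.34, adjusted p = 0.706). Prpf3, a protein of the spliceosome's tri-snRNP, stood at -0.56, Tra2a, a splicing activator, at -0.46, Rnpc3, of the minor spliceosome, at -0.42, and Pdcd11, a ribosomal RNA processing factor, at -0.54. Vcpip1, a deubiquitinase that works with the ATPase VCP, stood at -0.40, Fgd6, an exchange factor for Cdc42, at -0.96, Syne2, a nuclear envelope linker, at -0.29 and Jrkl, a protein related to transposases, at -0.61. The adjusted p-values of the lower genes named here ran from 0.541 to 0.706.

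Genes of glucose use gave a partial picture. Aldoc, an aldolase isoform that is scarce in muscle, measured 7.60, 4.87, 5.21, 5.05 and 4.40 CPM in runners and 0.694 to 3.23 CPM in sedentary rats (median 2.06). No value overlapped, but the libraries held 5 to 14 reads of it in runners and 1 to 6 in sedentary rats (log2 fold change 1.41, SE 0.45, edgeR adjusted p = 0.706). Pfkm, the muscle phosphofructokinase, stood at 247 ± 30.3 against 201 ± 37.5 CPM (0.30, SE 0.11). Slc2a4, the insulin- and contraction-responsive glucose transporter GLUT4, measured 880, 813, 755, 874 and 1080 CPM against 565 to 838 CPM (median 798). The 95% interval of its log2 fold change ran from -0.01 to 0.38, and without LCR sedentary 5, the lowest at 565 CPM, the value was 0.13, and without LCR running 5, the highest, 0.10. In the glycolysis list 18 of 27 tested members lay above 0 (median 0.05) and 4 were higher at an unadjusted p under 0.05, but without LCR sedentary 5 it was 14 of 27 (0.01, 2 higher) and without LCR running 5 14 of 28 (0, 3 higher). Aldoa, the main muscle aldolase, was at 0 in all 13 libraries of the table and gives no information. Of the insulin signalling list, 9 of 19 lay above 0 (median -0.02) and 0 had an unadjusted p under 0.05, and without LCR sedentary 5, 13 of 19 lay above 0 (0.07). Grb14, an adaptor that restrains the insulin receptor, stood at 0.31 (SE 0.16).

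Myosin type did not separate the groups. Myh7 measured 11400, 10700, 10500, 11100 and 11300 CPM in runners and 8730 to 12600 CPM in sedentary rats (median 11600), a difference of -0.05 on the log2 scale with a 95% interval from -0.30 to 0.20. Myh2, the myosin of fast oxidative fibres, measured 1090, 2940, 3120, 3140 and 5350 CPM against 928 to 4830 CPM (median 2730), and its interval, -1 to 1.03, spanned about 2-fold in each direction. Myh1 and Myh4, of the faster fibres, were highest among runners in LCR running 3 (1160 and 118 CPM). The other 4 runners measured 66.0 to 179 and 19.6 to 36.4 CPM. Sedentary rats ran from 76.8 to 813 CPM in Myh1 and from 27.7 to 163 CPM in Myh4. The log2 fold changes were -0.27 (SE 0.67) and -0.70 (SE 0.71). Over the refits without 1 library they ran from -1.63 to -0.02 and from -1.42 to -0.46, and no refit called either gene. Tnnc1, the calcium-binding troponin of slow and cardiac muscle, did not overlap between groups: the runners measured 3040, 2520, 2580, 2760 and 2930 CPM and the sedentary rats 1630 to 2450 CPM (median 2250; 0.38, SE 0.13, edgeR adjusted p = 0.706). The rest of the slow list did not follow it, as 9 of 15 slow-fibre genes lay above 0 (median 0.03) and 4 of 15 without LCR running 5 (median -0.07). Myh7b, a slow-tonic myosin, measured 43.4, 44.8, 44.0, 39.2 and 99.4 CPM against 44.2 to 94.1 CPM. It stood at -0.47 (SE 0.23), and at -0.77 without LCR running 5, which held the 99.4 CPM. Of 18 fast-fibre genes, 10 lay above 0 (median 0.01) and 0 had an unadjusted p under 0.05. Without LCR sedentary 5, 6 lay above 0 (-0.06), and without LCR running 5, 4 did (-0.06).

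**Figure D2:**
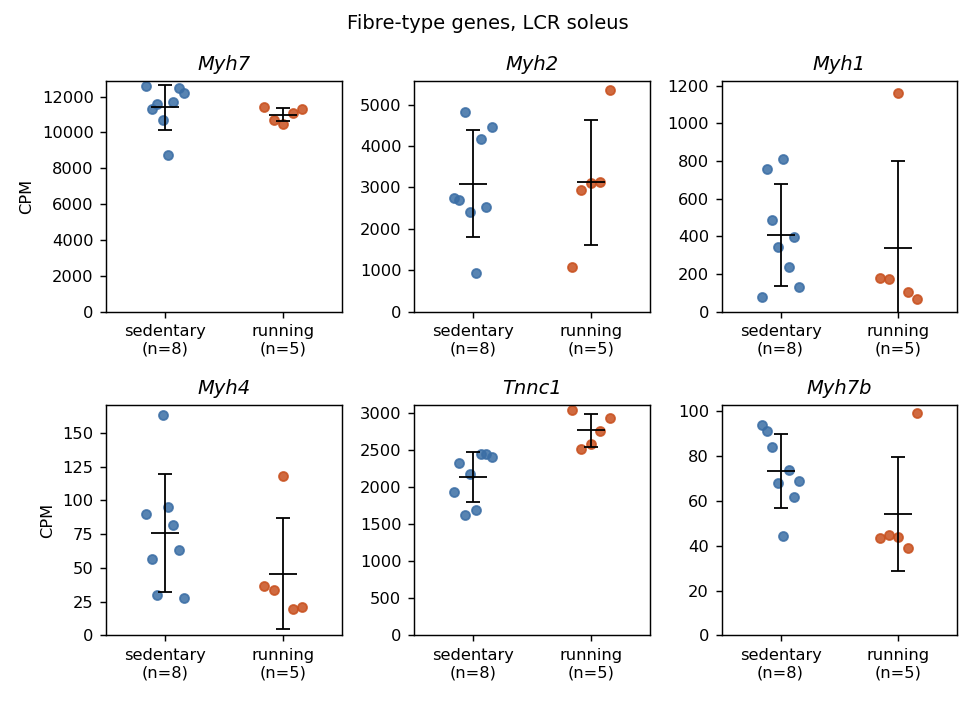
CPM of 6 contractile genes in each sedentary (blue, n = 8) and running (orange, n = 5) LCR library on axes from 0, with the group mean ± SD in black (the lower whisker of Myh1 in runners reaches below 0 and is not drawn there). Tnnc1 is the panel without overlap (2520 CPM and above in runners, 2450 CPM and below in sedentary rats), and 1 runner stands far above the other 4 in Myh1, Myh4 and Myh7b.

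Calcineurin, NFAT and fibre-type regulators were near 0 as a list (13 of 24 above 0, median 0.01). Rcan2, a calcineurin regulator, measured 254, 234, 228, 205 and 169 CPM against 148 to 213 CPM (median 178; log2 fold change 0.29, SE 0.10, edgeR adjusted p = 0.706), with LCR running 1, 2 and 3 above the sedentary range. Ppp3r1, the regulatory subunit of calcineurin itself, stood at 92.8 ± 9.44 against 76.8 ± 7.95 CPM (0.26, SE 0.09). Kyat3, 1 of the aminotransferases that turn kynurenine into kynurenic acid and are known to follow endurance training, measured 23.9, 16.5, 16.2, 20.2 and 19.3 CPM against 5.99 to 16.2 CPM (median 13.7; 0.57, SE 0.19, adjusted p = 0.706). LCR sedentary 5 held the 5.99 CPM, and without it the value was 0.44. Of the 4 tested members of that family, 4 lay above 0 (median 0.16), but 3 without either LCR sedentary 5 or LCR running 5, and the median was 0.07 without LCR running 1, with Got2, the mitochondrial aspartate aminotransferase, at 0.12 (SE 0.10).

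Immediate early genes, which answer a bout of contraction quickly and briefly, and clock genes were uneven. Fos, a component of AP-1, measured 74.3, 132, 80.5, 145 and 132 CPM in runners, against 83.4 through 166 to 678 CPM in sedentary rats (log2 fold change -1.06, SE 0.48, edgeR adjusted p = 0.793). LCR sedentary 2 held the 678 CPM, and over the refits without 1 library Fos ran from -1.19 to -0.61. Nr4a3, an exercise-responsive orphan nuclear receptor, measured 3.80, 7.78, 15.1, 65.7 and 16.7 CPM against 4.71 to 16.2 CPM (1.28, SE 0.50). LCR running 4 held the 65.7 CPM, and without it Nr4a3 stood at 0.24 (SE 0.40). Of 24 tested members, 10 lay above 0 (median -0.09, from -0.18 without LCR running 4 to -0.02 without LCR sedentary 5). Among 17 clock genes 9 lay above 0 (median 0.06, and 0 without LCR running 4). Hlf, a clock-controlled activator, measured 84.6, 119, 92.1, 96.7 and 107 CPM against 55.8 to 87.9 CPM (0.55, SE 0.17, adjusted p = 0.706), with 4 runners above the sedentary range. Nfil3, a repressor that binds the same sites, stood at 10.7 ± 3.92 against 17.7 ± 7.07 CPM (-0.70, SE 0.29). The hour at which muscle was taken is not in the labels, and its part in these values was not tested.

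Cytosolic ribosomal protein genes lay a little higher in runners, with 66 of 75 above 0, 8 higher and 1 lower at an unadjusted p under 0.05, and a median of 0.08. The counts were 62 of 75 without LCR sedentary 5 and 70 of 75 without LCR running 5. Rpl12, of the ribosome's stalk base, stood at 690 ± 55.9 against 591 ± 63.0 CPM (log2 fold change 0.22, SE 0.08) and Rpl39, a small protein of the exit tunnel, at 15.4 ± 3.70 against 10.1 ± 2.73 CPM (0.60, SE 0.20). Because ribosomal protein genes have near-identical copies elsewhere in the genome, counts of single members are uncertain. Heat shock proteins and chaperones leaned lower (7 of 28 above 0, median -0.08). Hspe1, the mitochondrial co-chaperonin, was the 1 member higher at an unadjusted p under 0.05 (94.6 ± 13.4 against 74.5 ± 12.6 CPM, 0.34, SE 0.12), while Hsph1, a nucleotide exchange factor for HSP70, stood at 102 ± 7.24 against 119 ± 12.9 CPM (-0.22, SE 0.09). In the endoplasmic reticulum, Sel1l, an adaptor of protein disposal there, ran from 125 to 138 CPM in runners and from 103 to 125 CPM in sedentary rats, with the lowest runner just above the highest sedentary rat (0.21, SE 0.08), and Hsp90b1, the HSP90 of that compartment, stood at -0.27 (SE 0.13). Among 28 antioxidant and NRF2 target genes, 15 lay above 0, and 3 were lower at an unadjusted p under 0.05. These were Osgin1, Txnrd1, the cytosolic thioredoxin reductase (91.4 ± 9.30 against 112 ± 13.1 CPM, -0.29, SE 0.11), and Prdx1, a peroxiredoxin (-0.35).

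Markers of the other cells in the muscle were examined as lists. A lower or higher marker can reflect fewer or more cells of a type or less or more RNA in each, and bulk counts cannot tell these apart. Of 16 tested macrophage markers, 14 lay above 0 and 3 were higher at an unadjusted p under 0.05 (median log2 fold change 0.19): Cd68, the lysozyme Lyz2 (39.0 ± 9.56 against 27.6 ± 9.39 CPM, 0.51, SE 0.22) and Csf1r, the receptor for the macrophage growth factor (0.44). Without LCR running 4, 13 lay above 0 and 2 were higher (median 0.10). LCR sedentary 7 was the lowest library on this list, at -0.49 on its log2 scale, and without it the median was 0.12. The summed level of the markers ran from 543 to 804 CPM in runners and from 339 to 699 CPM in sedentary rats, and no macrophage marker was at 0 throughout. MHC class II genes, which present antigen, had 5 of 6 above 0 (median 0.24), with RT1-Ba at 14.1, 11.7, 8.69, 15.8 and 6.16 CPM against 3.12 to 10.4 CPM (0.70, SE 0.26) and RT1-Da at 0.53 (SE 0.33). Of 13 lymphocyte markers counted, 1 passed the filter, and Ms4a1, which encodes the B-cell antigen CD20, was at 0 in all 13 libraries.

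Vessel markers lay on the other side. Among 18 endothelial markers, 4 lay above 0 and 2 were lower at an unadjusted p under 0.05 (median -0.22), and their summed level ran from 661 to 966 CPM in runners and from 702 to 1050 CPM in sedentary rats. Pecam1, an adhesion molecule of endothelial junctions, measured 47.2, 48.2, 30.7, 53.7 and 54.5 CPM against 41.2 to 74.3 CPM (median 57.7; log2 fold change -0.28, SE 0.13, edgeR adjusted p = 0.81), and Plvap, a diaphragm protein of fenestrated vessels, stood at 3.61 against 5.90 CPM (-0.67, SE 0.32). Without LCR sedentary 5, 2 of 18 lay above 0 and 6 were lower. Over the refits without 1 library, the endothelial median ran from -0.28 to -0.16. In pericyte and smooth muscle markers 3 of 15 lay above 0 (median -0.20), with 3 lower at an unadjusted p under 0.05. Their median was -0.38 without LCR running 2, and at most -0.15 in any refit without 1 library. Acta2, the smooth muscle actin, was at 17.6 ± 2.44 against 26.5 ± 8.91 CPM (-0.56, SE 0.20, adjusted p = 0.706), and Abcc9, the sulfonylurea receptor found in pericytes and in muscle fibres alike, at -0.18 (SE 0.08). Vegfa, the growth factor that drives capillary growth after exercise, measured 87.4, 88.1, 107, 120 and 162 CPM against 113 to 174 CPM (median 117; -0.18, SE 0.15), and stood at -0.33 without LCR running 5, which held the 162 CPM. In 16 of 33 collagen and matrix genes the value was above 0 (median 0), which became 26 of 33 (median 0.16) without LCR sedentary 5, so that no direction can be given for matrix. Chrnd, a subunit of the acetylcholine receptor, stood at -0.30 (SE 0.15). Chrng, the subunit that marks denervated or regenerating fibres, stood at -0.89 (SE 0.55). Of the acetylcholine receptor and denervation list, 7 of 20 genes lay above 0. The median was -0.10, from -0.25 without LCR running 3 to -0.01 without LCR sedentary 5. LCR sedentary 5 held the highest Chrng value, 79.8 CPM, and without it Chrng stood at -0.47. Fbxo32, the atrophy ligase atrogin-1, was at 259 ± 49.2 against 227 ± 30.0 CPM (0.19, SE 0.13, and 0.29 without LCR running 5), and of 25 atrophy genes 14 lay above 0 with 0 at an unadjusted p under 0.05.

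**Figure D3:**
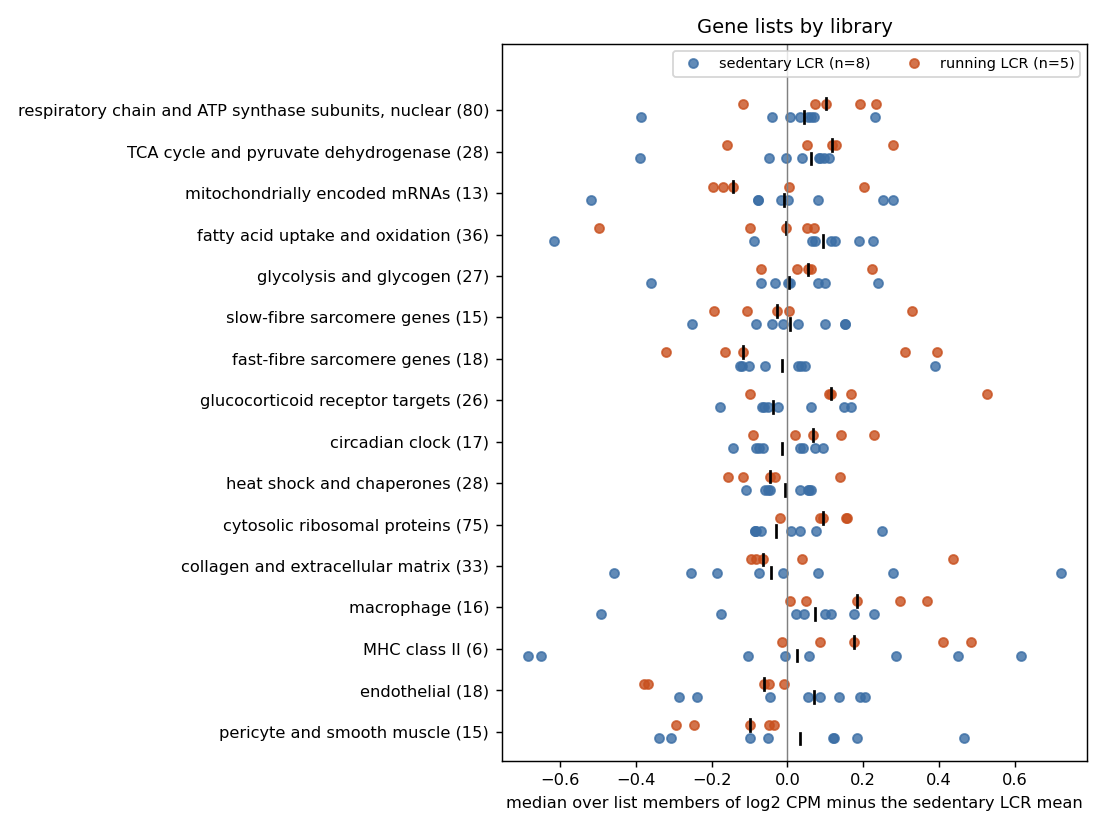
For 16 gene lists (number of tested members in brackets), each dot is 1 LCR library's median, over the list's members, of log2 CPM minus the sedentary LCR mean; blue dots are sedentary (n = 8), orange dots running (n = 5), and black ticks mark each group's median. The groups overlap in all 16 lists. In the upper lists, from the respiratory chain down to glycolysis, 1 sedentary library, at -0.36 to -0.62, lies far below the other 7.

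The running response of LCR was set beside that of HCR, whose 13 libraries are separate animals. HCR runners had 10 genes past the threshold (0.0994%, 12.5% at an unadjusted p under 0.05), and 0 genes (0%) passed for the difference of responses, with 592 (5.88%) at an unadjusted p under 0.05. LOC102550339, 1 of those 10, had 0 to 3 reads in each LCR library and gives no fold there. The other 9 all lay above 0 in LCR, each at a smaller log2 fold change than in HCR, and of the 10, 5 had an unadjusted p under 0.05 in LCR and 0 an adjusted one. Pde4d stood at 0.46 in LCR and 0.75 in HCR (HCR adjusted p = 0.00102), a difference of -0.28 with a 95% interval from -0.62 to 0.05. For Rcan2 the values were 0.29 and 0.67, with a difference of -0.38 (95% interval from -0.67 to -0.08, adjusted p = 0.835). Lmod3, an actin nucleator of thin filaments, differed by -0.39 (interval from -0.67 to -0.12) and Eno3, the muscle enolase, by -0.41 (interval from -0.75 to -0.07). Fam89b, an adaptor protein, and LOC102546992, a locus without a name, had values of 0.11 and 0.33 in LCR against 0.48 and 1.04 in HCR. As the HCR values chose these genes, and the difference contains them, these intervals are a description and no call of a smaller response is made.

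**Figure D4:**
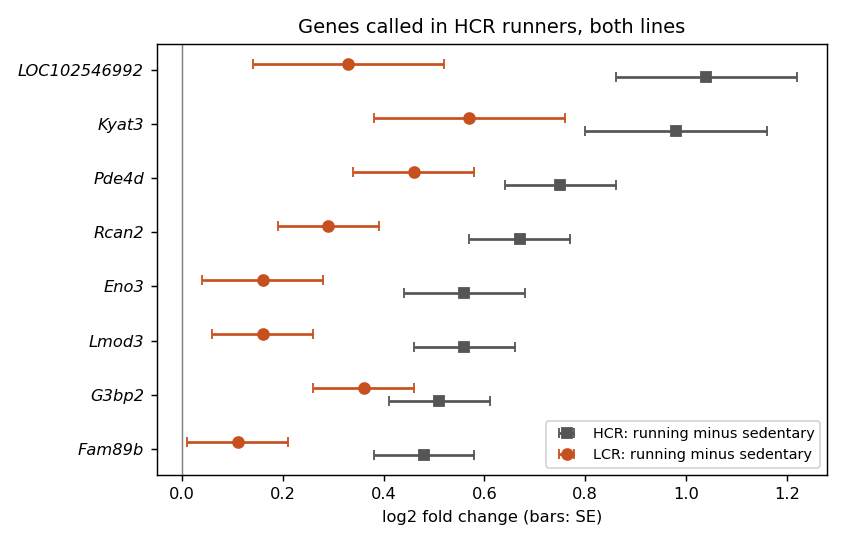
Log2 fold change of running over sedentary rats, with its SE as the bar, in LCR (orange circles) and HCR (grey squares), for 8 of the 10 genes past the threshold in HCR; LOC102550339 is left out because it had at most 3 reads in any LCR library, and 1 gene is not shown. All 8 LCR values lie above 0, from 0.11 to 0.57, and below the HCR value of the same gene.

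Genes taken for their values in LCR are set beside their HCR values next. Pdk4, Cpt1b and Myh2 are added, which were named whatever their p, with earlier results of these data known. For the former, the difference contains the LCR values that chose them. All the differences are again a description. Tsc22d3 stood at 0.61 in LCR and 0.29 in HCR (difference 0.32, 95% interval from -0.01 to 0.65), and Ppargc1a at 0.69 and 0.27 (difference 0.42, interval from -0.06 to 0.90). F2 stood at 1.49 and 0.24, Cd68 at 0.79 and -0.04, and Clcn3 at -0.38 and 0.11. Klf9 (0.34 in both lines) and Tnnc1 (0.38 and 0.41) were close in value in the lines, with intervals of the difference from -0.31 to 0.32 and from -0.40 to 0.33. Angptl4, a lipase inhibitor induced by fatty acids, had 0 to 3 reads in each LCR runner and 0 to 12 in the sedentary LCR rats (-1.69, SE 1.1), and stood at 2.21 in HCR. Pdk4 was at -0.28 and 1.30, a difference of -1.59 (SE 0.67, edgeR adjusted p = 0.836), while Slc2a4 stood at 0.19 and 0.39, Pfkm at 0.30 and 0.24 and Cpt1b at 0.06 and 0.23. The fatty acid list had a median of -0.11 with 10 of 36 above 0 in LCR and 0.17 with 33 of 36 in HCR, whose share over all genes was 49.1%. Its LCR median was -0.01 with the libraries taken by title, and -0.12 with both conflicting libraries left out. Ribosomal protein genes had medians of 0.08 and -0.04, macrophage markers of 0.19 and -0.12, and MHC class II genes of 0.24 and -0.47. The respiratory chain list lay above 0 in both, at 0.09 and 0.20. Myh2 was at 0.01 in LCR and -1.76 in HCR (HCR edgeR adjusted p = 0.174). Its difference of 1.78 (SE 0.71, 95% interval from 0.31 to 3.24) did not pass the threshold either (edgeR adjusted p = 0.835).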

How the data were processed

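The table deposited by the authors holds whole-number read counts per gene, raw and not normalized, as the values show (34034 genes, 0 columns of no sample). Per the submitters' processing notes, the tools were STAR, featureCounts, cutadapt, UMI-tools, FastQC and MultiQC, and the rat build mRatBN7.2 (rn7). Versions, strand, and whether reads sharing a molecular identifier were collapsed are not given in the sources used here, so near-identical, overlapping and antisense genes are uncertain.

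Counts were tested with edgeR 4.0.16 (R 4.3.3; quasi-likelihood F test, robust, TMM factors, filterByExpr by group, Benjamini-Hochberg adjustment, threshold 0.05) in 1 fit of all 26 libraries without covariates, and again with DESeq2 1.42.0 and limma 3.58.1 voom. CPM are TMM-scaled. List values per library use log2 CPM with a prior count of 2. SE is the size of the log2 fold change over the square root of F. Library measures were compared by exact 2-sided permutation over 1287 assignments.

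The 36 lists (819 members, 814 in the table) and the genes followed were chosen with earlier results of these data known. The rule names, where the mean log2 CPM reaches 2 and the symbol is a proper one, the 12 higher and the 12 lower with the smallest p, the 2 members of each list with the smallest p, genes called by another fit or in HCR (up to 10), and a few genes such as Myh7 whatever their p. Not every gene it names is reported here. Klf9, Nfkbia, Klf15, Sesn1, Ppargc1b, Esrrb, Esrra, Tfam, Fkbp5, Zbtb16, Per1, Nr3c1, Csf1r and Prdx1 were chosen after their values were seen. Pairs of libraries of a group differed by more than sampling noise (chi-square per degree of freedom from 2.26 to 10.7). The labels name no batch. Where nothing more is known, p-values measure the spread between these libraries, with cage mates counted separately.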

Additional observations from a re-analysis of the deposited data

Results flagged for a closer look

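A value was singled out where 1 library of a group lay far from the rest for the size of the group's range (Dixon's 95% limit on the log2 scale, which chance passes in about 1 in 20 groups). Of 172 groups of values tried, 19 did so, 7 among running and 12 among sedentary libraries. LCR sedentary 5 held 7 of the 12 sedentary ones, all on the low side. It stood at 177 CPM in Hadha (243 to 305 in the other 7), 281 in Cpt1b (413 to 500), 565 in Slc2a4 (760 to 838), 8730 in Myh7 (10700 to 12600), 928 in Myh2 (2410 to 4830), 5.99 in Kyat3 (11.4 to 16.2) and 376 in Eno3 (554 to 780). These are all genes of muscle fibres. The same library had the largest total count and a TMM factor of 1.097, and its part in these values was not tested.

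LCR running 5, whose title names the other line, stood high in 3 genes: 99.4 CPM in Myh7b (39.2 to 44.8 in the other runners), 109 in Ppp3r1 (85.1 to 91.2) and 72.1 in Plaat1 (62.9 to 65.2). LCR running 3 stood low in G3bp2 (123 against 164 to 184) and in Pecam1 (30.7 against 47.2 to 54.5), LCR running 4 in Lmod3 (702 against values up to 858), and LCR running 1 stood high in Pdha1 (197 against 152 to 163). LCR sedentary 7 was low in Cd68 (6.86 against 12.5 to 20) and Sesn1 (30.0 against 46.4 to 56.9). LCR sedentary 4 was low in F2 (1.34 against 3.23 to 5.41), LCR sedentary 2 in Vcpip1 (40.8 against 51.4 to 60.2), and LCR sedentary 1 was high in Atp5pf (316 against 202 to 246).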

How the results depend on the processing

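Of 12 other settings and 26 refits that each left out 1 library, the count of genes called for running in LCR was 2 with DESeq2 and with no filter on low counts, 1 with voom and 1 with both conflicting titles left out, and 0 in the other settings, which include the replicate block and the line of the title. Leaving out 1 library gave 0 to 2. Leaving out HCR running 4 gave 2, and leaving out LCR running 4, LCR running 5, LCR sedentary 8 or HCR running 1 gave 1. The called genes were Tsc22d3, F2 or both throughout (adjusted p from 0.00756 to 0.0455). The difference of responses gave 0 under every setting and refit. Replicate numbers do not pair the libraries (correlations of same-numbered deviations from -0.212 to 0.042), and the replicate block gave 0 calls.

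Of 976 values followed for 83 genes over the 12 settings, 964 kept their side of 0 and of the threshold. Myh2 was -0.16 with voom, -0.50 with the title's line, -0.27 without the conflicting titles, -0.10 with the replicate block, and -0.27 to 0.23 without 1 library. Pdk4 was 0.13 with the title's line, and Cpt1b -0.01 without the conflicting titles and -0.02 to 0.13 without 1 library, while Tfam ran from -0.01 to 0.05. The difference in total counts was 0.00832 M without the conflicting titles and -0.181 to 0.00832 M without 1 library, that in mitochondrial share -0.0165 to 0.484 and that in fast myosin share -0.0515 to 0.0364. With the title's line Hadha was -0.03 and the fatty acid list's median -0.01. Of 1365 list medians 7 moved by more than the spread between runners, among them insulin signalling, to 0.04 without the conflicting titles. A planned filter of 5 CPM in 5 libraries kept more genes than the default, so a filter of 20 CPM was added after the data were seen, as were the list counts without single libraries. With 5 runners and 1.28 to 2.46 M counts a library, genes of a few CPM rest on few reads, and the 95% intervals of 91.8% of genes exclude a 2-fold difference while those of the rest do not.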

Other observations

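The gene lists not yet described had medians between -0.26 and 0.07 on the log2 scale (running over sedentary LCR), and 0 of their members passed the threshold by edgeR. Of 23 endoplasmic reticulum chaperones and folding genes, 8 lay above 0 in runners (median -0.05), and of 19 interferon response genes 6 did (-0.05), with 0 of the latter at an unadjusted p under 0.05. Angiogenic factors had 4 of 15 above 0 (median -0.09), with the receptor Kdr at -0.25 (SE 0.15) and Apln, a peptide released by exercised muscle, at 0.47. Myokines had 9 of 12 above 0 (median 0.07), among them Igf1, a growth factor of fibres, at 0.20, while Bdnf, a neurotrophin, stood at -0.47. In these 2 lists 0 members had an unadjusted p under 0.05.

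Markers of other cells were few after the filter on low counts. Fibro-adipogenic progenitors had 6 of 13 above 0 (median 0), adipocytes 2 of 9 (-0.21, and 0.07 without LCR sedentary 3), Schwann cells 5 of 7 (0.06), satellite cells 3 of 7 (-0.21, with the syndecan Sdc4 at 0.23, unadjusted p = 0.0374, and Pax7 at 0.10), erythrocytes 3 of 4 (0.02), mast cells 1 of 2 (-0.25) and tendon 1 of 5 (-0.26, and 0.20 without LCR sedentary 5). Kdr, Apln, Igf1, Bdnf, Sdc4 and Pax7 were taken from these lists after their values were seen.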
